A study of Mus musculus with 2 samples.

Results

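The genes described here carry lipoprotein cholesterol and fat into a fibroblast, move the cholesterol out of its lysosomes and return it to the medium. They are Lpl, Lrp1, Vldlr, Scarb1, Abca1, Abcg1, Apoe, Npc1 and Npc2, 9 of the 18194 genes that have a probe set of their own on the array, and all 24 probe sets annotated to them were taken. They were chosen by function, but with the log2 ratios of this same pair of arrays already known to whoever proposed them. Their counts and medians are therefore descriptions, and no test was made on them.

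The cells were NIH3T3, an immortalised mouse embryonic fibroblast line grown in DMEM with FBS. One culture was infected with a retrovirus that expresses a short hairpin RNA against CCR4b, and the other with a retrovirus for control RNAi, so both carried an shRNA virus. CCR4b is the product of Cnot6l, a deadenylase subunit of the CCR4-NOT complex that trims poly(A) tails. Total RNA of each was hybridised to 1 Affymetrix mouse array, and the comparison asks which messenger RNAs differ once CCR4b is depleted. With 1 array per group, no value has a replicate error and no p-value can be given. The labels do not say how many hairpin sequences, infections or clones stand behind each culture.

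Cells obtain cholesterol from lipoproteins by receptor-mediated endocytosis, and lipoprotein lipase frees fatty acids from the same particles at the cell surface. Cholesterol released in lysosomes is handed from the soluble protein NPC2 to the membrane protein NPC1, and surplus cholesterol leaves through the transporters ABCA1 and ABCG1 to acceptor particles that can carry apolipoprotein E. Efflux genes are known targets of the oxysterol receptors called LXR, which act when sterols are plentiful, whereas the SREBP2 transcription factor drives sterol synthesis when they are scarce. A microRNA, miR-33, is made from an intron of the SREBP2 gene and is known to repress Abca1 and Npc1. Both controls are written in sequence, and these are shown because the efflux gene Abca1 had the highest ratio of the group.

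The first is the 250 bases before the RefSeq start of Abca1 (GRCm38.p6, chr4:53159896-53160145, minus strand, written 5′ to 3′ along the gene). Capitals mark the stretch closest to the LXR-type direct repeat, 2 copies of AGGTCA separated by 4 bases. The second is mature miR-33-5p (RefSeq, GRCm38.p6, chr15:82198127-82198147, plus strand), whose position lies within the span of Srebf2, with its seed, bases 2 to 8, in capitals.
Abca1: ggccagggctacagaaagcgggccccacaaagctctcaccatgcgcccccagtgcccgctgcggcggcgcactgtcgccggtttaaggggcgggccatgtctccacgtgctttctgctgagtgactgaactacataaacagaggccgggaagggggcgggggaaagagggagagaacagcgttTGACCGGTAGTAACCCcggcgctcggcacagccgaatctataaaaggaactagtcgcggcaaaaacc
miR-33-5p: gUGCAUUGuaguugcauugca

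The capitals in the Abca1 promoter lie 67 to 52 bases before the start. Read on the opposite strand they are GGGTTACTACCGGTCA, which differs from the repeat at 3 of its 12 fixed letters. Searched on both strands with up to 3 mismatches, such a stretch was present in 18.5% of 32851 promoter windows of the same length, so a match is common. Promoters of 5 of the 9 genes were in the RefSeq table (Abca1, Apoe, Lrp1, Npc2 and Vldlr, 8 windows in all). At this limit the Abca1 window alone held a match, but the limit equals the mismatch count of Abca1 itself. Windows of Apoe came as close as 4 mismatches, and those of Lrp1, Npc2 and Vldlr as close as 5.

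Signals are in the arbitrary units of the deposited table. Detection calls are not part of that table, so values under 8.07 units, the 50th percentile over both arrays together, were raised to that floor. The probe set brightest over both arrays together stands for its gene. A gene counts as measured when that probe set reached the floor on its brighter array. A ratio against the floor is a bound, written "at least". CCR4b RNAi is always set over control RNAi. Where a pair of signals is given, the control value comes first. Of the 45101 probe sets, the median signal was 7.81 units in the control and 8.34 units after CCR4b RNAi, and the 11915 measured genes had a median log2 ratio of -0.070. The hairpin's target checked the labels: Cnot6l gave 102 units (control) against 43.0 units (CCR4b RNAi) on its brightest probe set, 2.38-fold lower, and the other 3 probe sets were lower too. The related deadenylase gene Cnot6 was 1.61-fold lower on the probe set that stands for it. Its other sets were 2.04-fold, 1.74-fold and 1.81-fold lower. All 11 fibroblast markers looked at were above the floor on both arrays, with a median log2 ratio of 0.37. Col1a2 read 3700 and 3993 units and Vim 4022 and 3655 units, Lum and Col1a1 were 1.64-fold and 1.52-fold higher, and Thy1 was 1.70-fold lower.

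Of the 9 genes, 3 were at least 2-fold higher after CCR4b RNAi (Lpl, Abca1 and Npc1), and none was 1.5-fold lower. Lrp1, Vldlr, Scarb1 and Npc2 lay within 1.5-fold on their brightest probe sets, Abcg1 had only a bound, and Apoe was below the floor on both arrays. Among all measured genes, 11.3% were at least 1.5-fold higher and 14.6% at least 1.5-fold lower, while 3.74% were at least 2-fold higher and 4.48% at least 2-fold lower. For the 8 of the group that were measured, the median log2 ratio was 0.29, beside -0.070 for all genes. Since the genes were proposed with these ratios known, nothing is read from that difference.

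**Figure D1:**
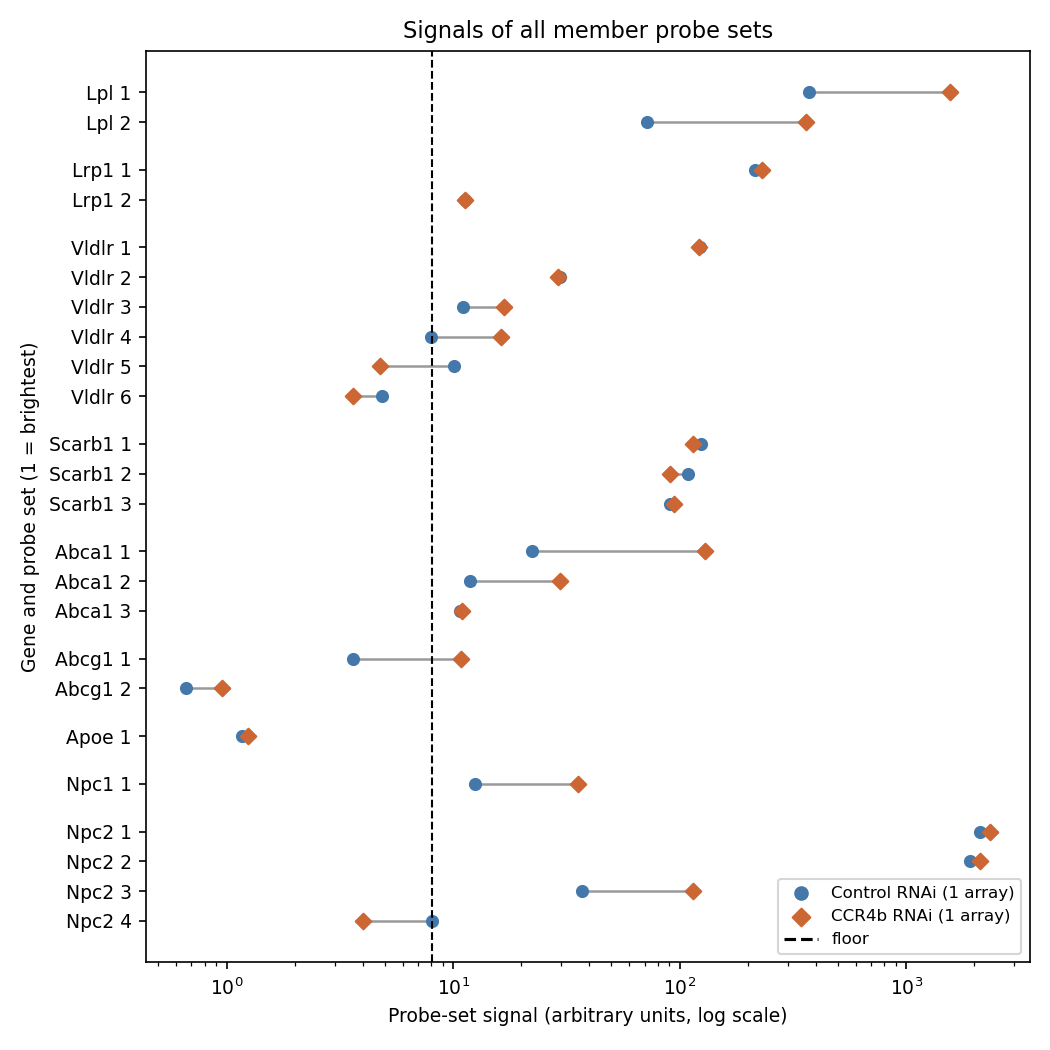
Signal of each of the 24 probe sets on the control RNAi array (circles) and the CCR4b RNAi array (diamonds), in arbitrary units on a log scale, with the floor of 8.07 units as a dashed line; each point is 1 array, so there are no error bars. Both Lpl probe sets and the brightest of Abca1 show wide gaps, while Lrp1, Scarb1 and the 2 brightest probe sets of Vldlr and Npc2 show almost none.

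Lpl encodes lipoprotein lipase, the enzyme that hydrolyses triglycerides of chylomicrons and VLDL. The signal of its brighter probe set was 374 units in control cells and 1554 units in depleted cells. That of the other was 71.9 and 360 units. Both were far above the floor in the control, and both were higher in the depleted culture, by 4.15-fold (log2 ratio 2.05) and 5.0-fold (log2 ratio 2.32). The pair differed by 0.27 log2 units, less than the robust SD of 0.33 log2 units between probe sets of 1 gene, taken over 4550 genes. Lpl had the 31st highest ratio of the 11915 measured genes, and its difference of 1180 units was the 3rd largest increase. In its own class of signal, the brightest of 10 equal classes with 1191 genes, Lpl and 1 other gene had a ratio that high, and the class had a robust SD of 0.36.

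Genes that act on lipoprotein lipase or alongside it were looked at next. From a list of 17 lipases and lipase regulators, 15 had a probe set of their own and 10 were measured, of which 1 passed 1.5-fold upward and none downward (median log2 ratio 0.12). The higher gene was Angptl4, a secreted inhibitor of lipoprotein lipase, at 318 and 507 units (1.60-fold). That set can cross-hybridise with other transcripts, and the second Angptl4 probe set read 0.554 and 9.27 units, at least 1.15-fold higher. Gpihbp1, which anchors the lipase on capillary endothelium, was below the floor on both arrays, at 4.15 and 8.03 units. Lmf1, needed for folding of the enzyme, read 35.5 and 41.3 units, and Lipa, the lysosomal acid lipase that hydrolyses cholesteryl esters of ingested lipoproteins, read 201 and 179 units. The dimmest Lipa probe set read 60.7 and 38.5 units (1.58-fold lower). Pltp, the phospholipid transfer protein, read 115 and 162 units on its brightest probe set and 22.4 and 42.1 units (1.88-fold higher) on the other. On the probe sets that stand for the genes, Angptl4 was thus the sole gene of the measured list past 1.5-fold beside Lpl.

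The receptors of the group did not share the difference of Lpl. Lrp1, a large endocytic receptor for remnant lipoproteins that carry apolipoprotein E, read 215 and 232 units on its brighter probe set (log2 ratio 0.11). Its dim probe set read 11.3 units on both arrays. The signal class of the brighter one had a robust SD of 0.41, so neither log2 ratio came near that spread. Lrp1 stayed positive under each of the 8 other processing settings, but was as low as 0.012 when the arrays were scaled to a common median.

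Scarb1 encodes SR-BI, the HDL receptor that takes up cholesteryl esters without taking in the particle. Its probe sets read 124 and 115 units, 108 and 91.1 units, and 90.5 and 94.5 units in control and CCR4b RNAi. Of these, the 2 brighter sets can cross-hybridise with other transcripts. The log2 ratios of -0.11, -0.25 and 0.063 straddled 0, and all 3 lay inside the robust SD of about 0.44 and 0.43 of their signal classes. The gene's sign turned with quantile normalization (0.015), with the loess correction (0.024) and without cross-hybridising probe sets (0.063), so Scarb1 has no direction here.

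Vldlr encodes the VLDL receptor, a relative of the LDL receptor that also binds apolipoprotein E. It has 6 probe sets, the most of the group, and they disagreed. The brightest read 123 and 122 units and the next 29.6 and 29.1 units, log2 ratios of -0.012 and -0.022. Of the dim ones, the first read 11.0 and 16.7 units (1.52-fold higher), the second 8.01 and 16.3 units (at least 2.02-fold higher) and the third 10.1 and 4.74 units (at least 1.26-fold lower). The last, at 4.86 and 3.63 units, was below the floor on both arrays. The brighter pair thus gave nearly equal signals in both cultures, and the dimmer sets went both ways close to the floor. The value that stands for Vldlr turned positive with quantile normalization (0.11) and with the loess correction (0.12).

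Other receptors of the LDL receptor family and their adaptors, a list of 18 genes of which 11 were measured, had a median log2 ratio of 0.13, with 2 genes past 1.5-fold upward and 1 downward. Lrp12 read 33.6 and 69.0 units (2.05-fold higher). Lrp5, a coreceptor of Wnt ligands, went from under the floor to 12.3 units, at least 1.52-fold higher. The brightest sets of Dab2 and Lrp6 were within 1.5-fold (1.47-fold and 1.39-fold higher), but dimmer ones passed it. Those of Dab2 were 1.76-fold, 2.22-fold and at least 1.55-fold higher, and that of Lrp6 was 1.71-fold higher. Lrp8, the apolipoprotein E receptor 2 that also binds reelin, read 26.7 and 14.5 units (1.84-fold lower), though its dimmer probe set read 9.43 and 8.94 units. Lrpap1, the chaperone that keeps receptors of this family from binding ligand in the ER, read 360 and 350 units. Mylip, an LXR target whose product marks LDL receptors for degradation, read 211 and 291 units. The LDL receptor itself is not analysed here.

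Scavenger receptors, the class of SR-BI and CD36, bind modified lipoproteins and other polyanions. Of 13 listed genes, 8 were measured, with 4 past 1.5-fold upward and 1 downward (median log2 ratio 0.53). Scarb2, which encodes the lysosomal membrane protein LIMP-2, read 91.6 and 298 units (3.25-fold higher) on 1 probe set but 73.3 and 89.0 units (1.22-fold) on the other. Scara5, a ferritin receptor, read 116 and 332 units (2.85-fold higher), and Colec12 read 87.1 and 195 units (2.24-fold higher). Stab2 came up from under the floor, at least 1.63-fold higher. Cd68, a lysosomal glycoprotein best known from macrophages, read 24 and 9.42 units (2.55-fold lower). Cav1, the caveola protein often studied with SR-BI, read 1716 and 1664 units. CD36, a receptor for fatty acids and oxidised LDL, was below the floor on both arrays (3.39 and 2.79 units).

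The pair of proteins that empties lysosomes of cholesterol differed in what its probe sets showed. Npc1, the sterol transporter of the lysosomal membrane, has 1 probe set, with 12.5 units on the control array and 35.6 units on the CCR4b RNAi array. That is 2.84-fold higher (log2 ratio 1.51). The control value was 1.55 times the floor, in a class of dim genes with a robust SD of 0.58, where 22 of 1191 genes had a ratio at least as high. No second probe set bears on it.

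Npc2, the soluble sterol carrier that hands cholesterol to NPC1, has 4 probe sets. Its 2 bright probe sets read 2110 and 2334 units and 1907 and 2120 units, 1.11-fold higher in each case. A much dimmer one read 37.2 and 114 units, 3.07-fold higher (log2 ratio 1.62), and the dimmest was at the floor in the control, with 8.11 and 3.99 units. The bright pair lay within the robust SD of 0.36 of its class, whereas the set at 3.07-fold stood 1.47 log2 units above them. Where each of these sets lies on the transcript is not given in the sources used here.

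**Figure D2:**
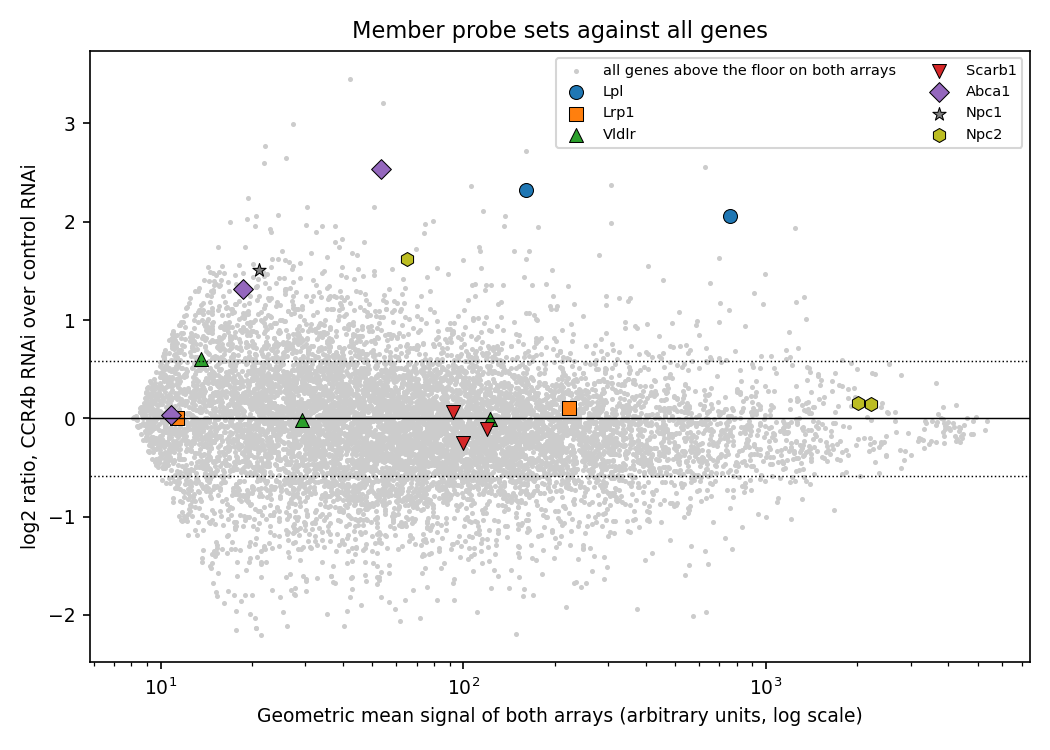
Log2 ratio of CCR4b RNAi over control RNAi against geometric mean signal (arbitrary units, log scale) for the 17 probe sets of the group that were above the floor on both arrays (symbols by gene) and for all genes above it (grey points); dotted lines mark 1.5-fold. Lpl at 2.05 and 2.32 and the brightest Abca1 probe set at 2.54 lie above almost all genes of like signal, while Npc2 and Abca1 each also have probe sets near 0.

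Further genes of lysosomal and cytosolic sterol transport, 28 listed and 23 measured, had a median log2 ratio of 0.00043, with 3 past 1.5-fold upward and 5 downward. Lamp2, a lysosomal membrane protein, read 969 and 1489 units (1.54-fold higher), but its other probe sets had log2 ratios of 0.34, 0.35 and -0.099. The oxysterol-binding protein relatives Osbpl8 and Osbpl7 were 1.93-fold and 1.67-fold higher, from 24.9 and 17.5 units. On the lower side were Stard4, a cytosolic sterol carrier (122 and 55.0 units, 2.22-fold), Nceh1, a neutral cholesteryl ester hydrolase (38.0 and 21.6 units, 1.76-fold), and Tmem97, a protein that binds NPC1 (88.3 and 51.2 units, 1.72-fold). Osbp2 passed below the floor, at least 1.55-fold lower. The 3 Stard4 probe sets agreed, at 2.22-fold, 2.07-fold and 2.02-fold lower. Scp2, sterol carrier protein 2, read 631 and 632 units. The list thus went both ways, and Npc1 had a higher ratio than any gene of it.

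Abca1, the transporter that loads cholesterol and phospholipid onto lipid-poor apolipoprotein A-I, had the highest ratio of the group. The brightest of its 3 probe sets went from 22.2 units to 129 units, 5.82-fold higher (log2 ratio 2.54). The next read 11.9 and 29.5 units, 2.49-fold higher (log2 ratio 1.31). The dimmest read 10.7 and 10.9 units (log2 ratio 0.031). All 3 log2 ratios were positive, but they spanned 2.51 log2 units. Of 4550 genes with several probe sets above the floor, 14.1% had sets at least 1 log2 unit apart, a narrower gap than that of Abca1. The share with sets as far apart as those of Abca1 was not counted. Every control value of Abca1 was within 3 times the floor. Its brightest set ranked 13th of the 11915 measured genes, and in its signal class Abca1 and 1 other of 1191 genes had a ratio that high. With the median over probe sets in place of the brightest, the log2 ratio was 1.31, and with a floor at the 75th percentile it was at least 1.85.

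Abcg1, the transporter that passes cholesterol to mature HDL, was too dim for a ratio. The brighter of its pair of probe sets gave 3.61 units, under the floor, in control cells and 10.9 units in depleted cells, which gives a bound of at least 1.35-fold higher. The other read 0.665 and 0.959 units. With the floor at the 25th percentile the same pair of values gave a log2 ratio of 1.59, so the call at 1.5-fold depends on where the floor is set. Apoe, whose product is the ligand of Lrp1, Vldlr and the LDL receptor, has 1 probe set, which read 1.17 and 1.25 units. It was below the floor on both arrays, so these arrays give no ratio for Apoe at this signal.

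Other apolipoproteins were mostly below the floor as well, since 4 of 14 were measured. Apod, a lipocalin carried on HDL, read 20.2 and 70.0 units (3.46-fold higher). Clu, which encodes clusterin or apolipoprotein J, read 31.2 and 72.1 units, 2.31-fold higher, on the brightest set and 2.33-fold, 2.03-fold and 3.28-fold on the others. The 3 brighter Clu sets can cross-hybridise, unlike the dimmest, at 14.8 and 48.4 units. Apoc3 passed from 12.5 units to below the floor, at least 1.55-fold lower. The other transporters of the ABCA, ABCG and multidrug families, 11 measured of 20, had a median log2 ratio of 0.051, with 2 past 1.5-fold upward and 1 downward. Both higher genes were bounds from below the floor, led by Abca9 (at least 1.92-fold), and Abca7, which is close to Abca1 in sequence, read 20.5 and 13.0 units (1.57-fold lower). Abcg2, a xenobiotic pump, read 184 and 191 units. Unlike Abca1, none of these transporters that was above the floor on both arrays passed 1.5-fold upward.

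Genes that share the known controls of Abca1 were set beside it. The list of LXR, RXR and PPAR receptors and LXR targets, 11 measured of 20, held none past 1.5-fold upward and 3 downward (median log2 ratio 0.081). Nr1h3, which encodes LXR alpha, went from under the floor to 9.99 units, and Rxra read 45.9 and 54.3 units. The LXR targets Srebf1 and Lpcat3 read 67.9 and 62.9 units and 188 and 179 units. Scd1 and Fasn, enzymes of fatty acid desaturation and synthesis that both LXR and SREBP1 can induce, were 1.79-fold and 1.53-fold lower. The other Scd1 probe set read 127 and 38.6 units (3.28-fold lower). Ppard, a receptor for fatty acids, was 1.92-fold lower. The LXR targets Mylip and Pltp had log2 ratios of 0.46 and 0.49 on the probe sets that stand for them, below 1.5-fold. The dimmer Pltp set, at 22.4 and 42.1 units, was 1.88-fold higher. Abca1 and Lpl, themselves known LXR targets, had higher ratios than each LXR target of this list that was over the floor on both arrays. Abcg1, also an efflux gene, had only a bound of at least 1.35-fold higher, and Apoe was below the floor on both arrays. Since the group was proposed with these ratios known, nothing is read from that order.

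**Figure D3:**
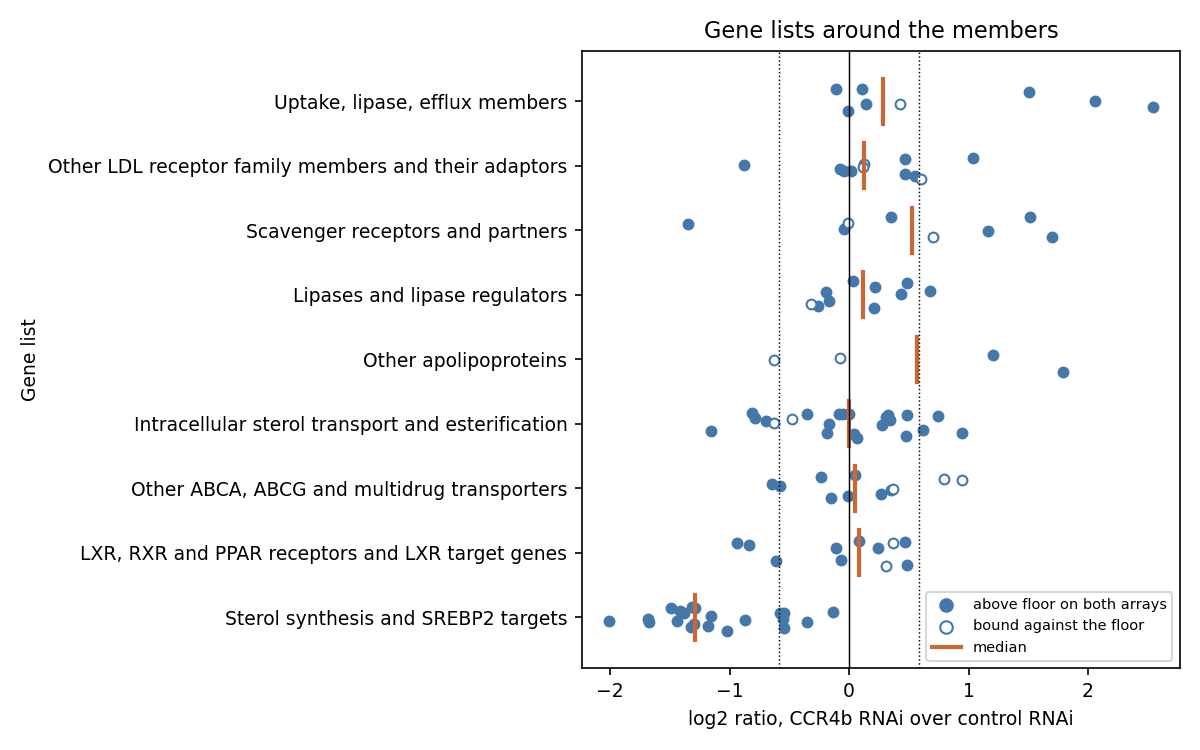
Log2 ratio of CCR4b RNAi over control RNAi for each measured gene of the group and of 8 surrounding lists, with filled points for genes above the floor on both arrays, open points for bounds, bars for medians and dotted lines at 1.5-fold. Medians run from -1.29 for sterol synthesis to 0.57 for the other apolipoproteins; some genes stand in more than 1 list.

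Sterol synthesis and other SREBP2 targets showed the opposite sign to Lpl, Abca1 and Npc1. All 21 genes with a probe set were measured, with a median log2 ratio of -1.29. On the probe sets that stand for them, 15 were past 1.5-fold downward, 14 of them past 2-fold, and none past 1.5-fold upward. Probe sets of Lss, Sc5d and Idi1 went both ways. The dimmer sets had log2 ratios of -0.34 and 0.20 for Lss, 0.50 and 0.27 for Sc5d, and 0.23 for Idi1. All measured sets of Hmgcs1, Fdft1, Mvd, Mvk, Hsd17b7, Stard4 and Cyp51 were lower, the dimmest of Cyp51 by at least 1.08-fold. Fdps, Cyp51 and Fdft1, which make farnesyl diphosphate, demethylate lanosterol and form squalene, were 4.02-fold, 3.21-fold and 3.19-fold lower. Srebf2, the gene of SREBP2 and host of miR-33, read 113 and 46.4 units (2.44-fold lower) on its brighter probe set and 62.6 and 52.6 units (1.19-fold lower) on the other. The probe sets used here do not measure mature miR-33, and the part of miR-33 or SREBP2 in the values of Abca1 and Npc1 was not tested.

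Lpl, Abca1 and Apoe are also expressed by macrophages and fat cells, so markers of these cells were looked at. Of 7 adipocyte markers, 5 had a probe set and 2 were measured. Fabp4 read 49.1 and 55.5 units on its brightest probe set and 27.1 and 41.2 units (1.52-fold higher) on the next, with 2 more below the floor, and Retn read 20.6 and 17.4 units. The probe sets that stand for these 2 genes summed to 69.7 units in the control and 72.9 units after CCR4b RNAi. Adipoq, Lep and Cidec were below the floor on both arrays, at no more than 4.98 units. Of 7 macrophage markers, 4 were measured, summing to 62.2 and 58.9 units, and Ptprc, Itgam and Aif1 were below the floor on both arrays. Lyz2 read 6.17 and 22.9 units, at least 2.83-fold higher, while Cd68 was lower, as given above. Adgre1 read 13.7 and 9.13 units (log2 ratio -0.58), and Csf1r read 18.4 and 17.5 units (log2 ratio -0.073) on its brightest probe set. Of 5 hepatocyte markers with a probe set, Alb alone reached the floor, at 8.21 units in the control. The measured macrophage markers thus went both ways, with Lyz2 alone higher and a median log2 ratio of -0.33. The part of any other cell type in the values of Lpl, Abca1 and Npc1 was not tested. On bulk RNA, fewer cells of a type and less RNA per cell cannot be told apart.

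**Figure D4:**
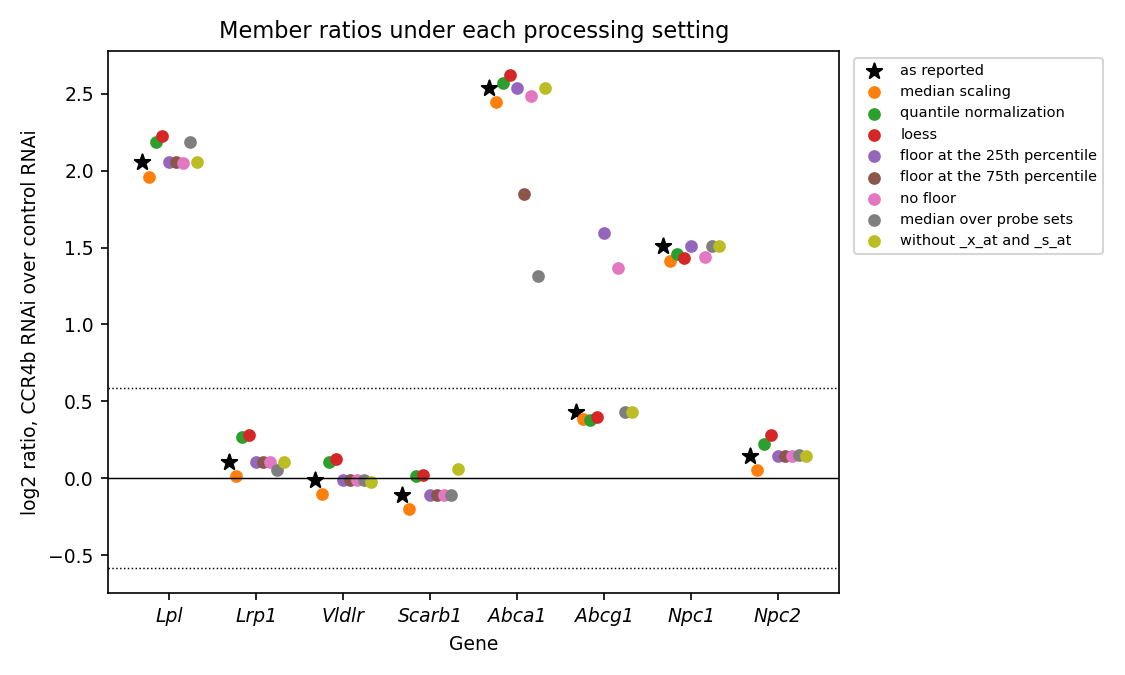
Log2 ratio of CCR4b RNAi over control RNAi of each measured gene of the group as reported (stars) and under 8 other settings of scaling, floor and probe-set choice (coloured points), with dotted lines at 1.5-fold. Lpl ranges from 1.96 to 2.22 and Npc1 from 1.41 to 1.51; Abca1 ranges from 1.31 to 2.62, and Abcg1 is past 1.5-fold under the settings with a lower floor or none.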

How the data were processed

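Total RNA of 2 NIH3T3 cultures, 1 per group, was measured on 1-colour Affymetrix arrays, grouped by the knockdown label. The deposited values are linear probe-set intensities, made by the authors in GCOS with a global normalization, per the series' design text. For GCOS, the version, the scaling target and any present or absent calls were not given in the sources used.

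Genes were named through GEO's platform annotation: 34958 probe sets have 1 symbol, 932 several and 9211 none listed. Of the first, 34754 matched the GRCm38.p6 RefSeq table. Ratios were log2 values of CCR4b RNAi over control RNAi after the floor, computed with pandas 2.3.3 and numpy 2.4.6, and the steps were tested on simulated data. Robust SDs are scaled median absolute deviations in 10 classes of mean signal. Probe sets ending in _x_at or _s_at are called open to cross-hybridisation.

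The 9 genes and all lists were chosen with earlier results of these data known. The text names all probe sets of the 9, and from each list other than the cell type markers up to 3 genes per direction at least 1.5-fold apart and above the floor on both arrays, plus 1 bound per direction; others named with values were chosen after these were seen. Alternatives were median scaling, quantile normalization, loess (span 0.3), a floor at the 25th or the 75th percentile, log2 of signal plus 1 in place of a floor, the median over probe sets, and leaving out cross-hybridising ones. The number of arrays limits the precision.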

Additional observations from a re-analysis of the deposited data

How the results depend on the processing

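The count of genes at least 1.5-fold higher was 3 as reported and under 5 alternatives, 4 with the floor at the 25th percentile or no floor (Abcg1 joined) and 2 with the floor at the 75th percentile (Npc1, at 35.6 units, was no longer measured); none was 1.5-fold lower under any of the 8. The median log2 ratio of the group moved from 0.29 to 0.83 with the floor at the 25th percentile, and was between 0.13 and 0.34 under the others. Abca1 moved to 1.85 with the floor at the 75th percentile, and to 1.31 with the median over probe sets. Abcg1 moved to 1.59 and 1.37 with the lower floor and with none. The median of the other apolipoproteins turned to -0.13 and -0.055 under those 2 settings, which let in dim genes, and was 0.99 with the floor at the 75th percentile. That of the LDL receptor family list moved from 0.13 to between 0.46 and 0.47 with either other floor or none, and that of the scavenger receptors from 0.53 to 1.16 with the floor at the 75th percentile. Lpl was between 1.96 and 2.22 under all 8. Median scaling moved the median of all genes by -0.088 log2 units. Signals near the floor (Abcg1, Npc1, the dim probe sets of Abca1 and Vldlr) limit what can be read. No paired analysis was possible because each group has 1 array, and no replicate could be left out.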
